A study of Rattus norvegicus with 20 samples.

Results

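A list of 38 symbols of genes that mature oligodendrocytes express was looked up by name in a gene count table of the rat nucleus accumbens. Of the 38 symbols, 34 had a row among the 17296 symbols of the table, and all 34 were among the 12846 genes with enough counts to be tested. The symbols Gjc3, Sept4, Trf and Carns1 had no row and were not analysed here. Sept4 is a synonym of Septin4 in RefSeq, and no values under that symbol are given here. The 34 genes comprised 12 structural myelin genes, 5 genes of myelin lipids, 2 transcription factor genes, 5 genes of the oligodendrocyte cytoskeleton and 10 genes of metabolism and other functions.

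The nucleus accumbens is a ventral striatal region of the reward circuit, and polyA RNA from it was sequenced in 20 male Sprague-Dawley rats of 7 to 9 weeks, 1 library per rat. All rats self-administered cocaine and were housed 2 to a cage, and the groups differed in what they drank. Abx_SCFA rats (n = 5) received antibiotics, which deplete the gut microbiome, together with short-chain fatty acids, which gut bacteria make by fermentation. Abx rats (n = 4) received antibiotics, SCFA rats (n = 6) received short-chain fatty acids and H2O rats (n = 5) received water. Which antibiotics and which fatty acids were used is not stated in the labels. Cage mates could not be told from the labels, so each rat counted as 1 replicate. The rat numbers of H2O and Abx libraries lie in the 200s and 300s and those of all SCFA and Abx_SCFA libraries in another series. In comparisons across that divide (SCFA or Abx_SCFA with H2O, Abx_SCFA with Abx, and the interaction), the fatty acids and the number series cannot be told apart.

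Oligodendrocytes wrap axons of the central nervous system in myelin, a stack of membrane that is rich in lipid and held together by a small number of abundant proteins. Myelin basic protein seals the cytoplasmic faces of this membrane, galactosylceramide and its sulfated form sulfatide make up much of its outer leaflet, and the transcription factor Myrf switches on the genes of myelin in the maturing cell. The accumbens is grey matter crossed by myelinated bundles, so its bulk RNA holds oligodendrocyte transcripts beside those of its medium spiny neurons. In bulk tissue, fewer oligodendrocytes and less RNA per oligodendrocyte cannot be told apart.

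Library totals ran from 17525358 to 25731636 counts. Levels are given in CPM, counts scaled to the size of the library. Summed levels of 14 genes of medium spiny neurons, the main cells of the accumbens, were 7852 to 9414 CPM in Abx_SCFA, 7077 to 10280 in Abx, 4330 to 9449 in SCFA and 7445 to 10090 in H2O. Genes of cortical excitatory neurons, which do not lie in the accumbens, were present to an uneven degree. Their summed level over 9 genes was 215 to 487 CPM in Abx_SCFA, 102 to 695 in Abx, 138 to 1487 in SCFA and 43.2 to 367 in H2O. It was highest in SCFA 2 (956 CPM) and SCFA 5 (1487 CPM). Neurod1 was at 0 counts in H2O 1 and H2O 3, and each of the other 8 genes had counts in all 20 libraries.

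Together the 34 genes made up 1.13% to 1.91% of all counts in Abx_SCFA, 0.653% to 1.37% in Abx, 0.633% to 2.26% in SCFA and 1.33% to 2.11% in H2O. Mbp, which encodes myelin basic protein, contributed the most counts of any of them. Its level was 9666, 5331, 7146, 6714 and 6249 CPM in the Abx_SCFA libraries and 5689, 5237, 2877 and 6083 CPM in the Abx libraries. The SCFA libraries ran from 2906 to 11369 CPM with a median of 7318, and the H2O libraries had 6944, 6383, 7989, 9270 and 10537 CPM. All 4 Abx libraries lay under all 5 H2O libraries, whereas SCFA held both the highest library of the study and one of the 2 lowest.

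Mag, which encodes an adhesion protein of the myelin layer next to the axon, had 653, 360, 402.65, 416.35 and 332 CPM in Abx_SCFA and 354, 405, 217 and 509 CPM in Abx. It ran from 173 to 816 CPM in SCFA, with a median of 531, and had 467, 442, 648, 665 and 682 CPM in H2O. Here Abx 4 exceeded H2O 1 and H2O 2, so the groups overlapped. Cnp, an enzyme gene of uncompacted myelin, averaged 725 ± 181 CPM in Abx_SCFA, 610 ± 186 in Abx, 813 ± 286 in SCFA and 943 ± 178 in H2O (SD). Mog, whose protein sits on the outer surface of the sheath, averaged 190 ± 38.6 CPM in Abx_SCFA, 163 ± 47.6 in Abx, 214 ± 77.3 in SCFA and 243 ± 44.5 in H2O. Mobp, a gene of compact myelin, averaged 1063 ± 259 CPM in Abx_SCFA, 843 ± 249 in Abx, 1193 ± 426 in SCFA and 1311 ± 272 in H2O. The means of these structural genes had 1 order, with Abx lowest, then Abx_SCFA, then SCFA and H2O highest, and the SDs of neighbours in that order overlapped.

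Among the lipid genes, Ugt8 makes galactosylceramide. It had 207.33, 122, 149, 167 and 123 CPM in Abx_SCFA, 141, 167, 80.3 and 165 CPM in Abx, 77.2 to 266 CPM in SCFA with a median of 195, and 180, 192, 230, 260 and 237 CPM in H2O. As with Mbp, no Abx library reached the lowest H2O library. Fa2h, which hydroxylates the fatty acids of myelin sphingolipids, averaged 60.2 ± 14.6 CPM in Abx_SCFA, 52.5 ± 16.9 in Abx, 67.6 ± 23.6 in SCFA and 78.0 ± 14.8 in H2O (SD). Gal3st1, the sulfotransferase gene of sulfatide synthesis, averaged 13.2 ± 2.59 CPM in Abx_SCFA, 10.3 ± 3.05 in Abx, 13.4 ± 4.18 in SCFA and 15.2 ± 2.63 in H2O. Aspa, whose enzyme frees acetate from N-acetylaspartate, had 25.2, 32.0, 16.7 and 28.7 CPM in Abx and 33.1, 32.98, 45.0, 42.5 and 41.2 CPM in H2O, again without overlap. Its mean was 29.8 ± 3.85 CPM in Abx_SCFA and 34.3 ± 10.6 in SCFA. Enpp2, which encodes the lysophosphatidic acid-producing enzyme autotaxin, averaged 180 ± 38.9 CPM in Abx_SCFA, 155 ± 45.6 in Abx, 215 ± 61.0 in SCFA and 251 ± 44.5 in H2O. The order of the group means was the same for all 5 lipid genes as for the structural genes named above.

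Both transcription factor genes had that order too. Myrf had 309.23, 204, 215, 241 and 179 CPM in Abx_SCFA, 195, 206.93, 135 and 263 CPM in Abx, 121 to 352 CPM in SCFA with a median of 268, and 240, 224, 319, 298 and 344 CPM in H2O. Abx 4 again overlapped H2O. Nkx6-2, a homeobox gene of mature oligodendrocytes, had 35.2, 21.0, 27.5, 28.9 and 23.6 CPM in Abx_SCFA and 22.9, 28.9, 16.4 and 27.9 CPM in Abx. It ran from 10.1 to 51.6 CPM in SCFA, with a median of 29.3, and had 34.045, 27.4, 41.0, 44.2 and 38.2 CPM in H2O, so that 2 Abx libraries reached H2O 2. Tppp, which encodes a tubulin polymerization-promoting protein, varied little within SCFA, at 100 to 121 CPM with a median of 116. It had 113, 87.2, 102, 107 and 91.3 CPM in Abx_SCFA, 115, 93.0, 77.1 and 128 CPM in Abx, and 104, 115, 125, 123 and 140 CPM in H2O.

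**Figure D1:**
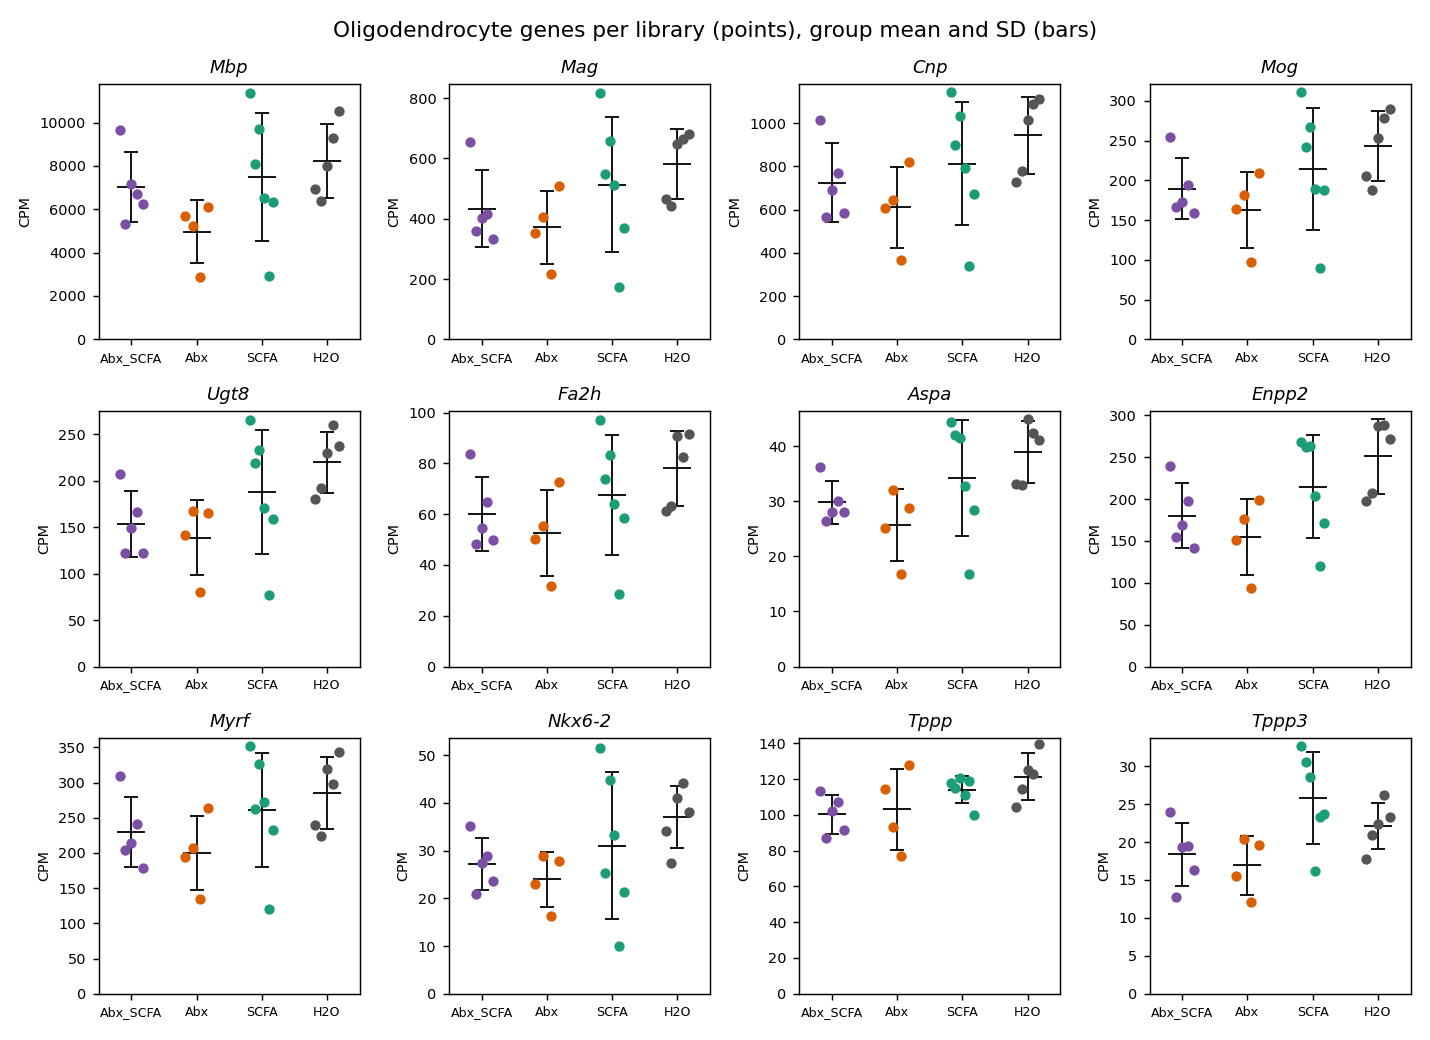
Levels of 12 oligodendrocyte genes in CPM (y axis, starting at 0), by group (x axis), with each library as a point and the group mean with its SD as a bar. Mbp ran from 2906 to 11369 CPM within SCFA alone, whereas Tppp ran from 100 to 121 CPM there.

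RefSeq promoter sequences of the GRCr8 assembly were found by symbol for 25 of the 34 genes. They were searched, over the 250 bases before the annotated start, on both strands for CTGGNAC, the letters that Myrf is known to bind. Myrf is itself one of the genes. The letters occurred in the promoters of 9 of the 25 genes (36%), Mbp, Mag, Cnp, Mal, Cldn11, Opalin, Gjb1, Ppp1r14a and Gpr37, and in at least 1 promoter of 4313 of all 27457 genes of the table (15.7%). Mbp has 2 promoters in the table and counts once. The Sox letters ACAANG occurred in 10 of the 25 (40%) and in 38.4% of all genes. The sequences of 4 genes are shown as examples, each written 5′ to 3′ on the strand of its gene, with the match in capitals. A match is a description of the letters and was not tested as a site. Positions are Mag chr1:95291045-95291294 (minus strand), Cnp chr10:86011254-86011503 (plus strand), Mal chr3:135341424-135341673 (minus strand) and Opalin chr1:249858191-249858440 (minus strand). The match begins 94 bases before the start in Mag and 124 in Cnp, and on the opposite strand 126 bases before it in Mal and 17 in Opalin.
Mag: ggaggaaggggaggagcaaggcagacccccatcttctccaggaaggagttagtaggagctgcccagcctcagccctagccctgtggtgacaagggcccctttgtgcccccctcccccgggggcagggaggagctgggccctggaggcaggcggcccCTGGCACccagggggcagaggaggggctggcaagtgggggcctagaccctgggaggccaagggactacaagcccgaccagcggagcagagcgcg
Cnp: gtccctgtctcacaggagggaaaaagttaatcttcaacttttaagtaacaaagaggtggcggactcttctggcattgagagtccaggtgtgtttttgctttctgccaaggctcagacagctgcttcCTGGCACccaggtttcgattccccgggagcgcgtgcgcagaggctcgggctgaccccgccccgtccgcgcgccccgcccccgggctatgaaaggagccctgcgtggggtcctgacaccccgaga
Mal: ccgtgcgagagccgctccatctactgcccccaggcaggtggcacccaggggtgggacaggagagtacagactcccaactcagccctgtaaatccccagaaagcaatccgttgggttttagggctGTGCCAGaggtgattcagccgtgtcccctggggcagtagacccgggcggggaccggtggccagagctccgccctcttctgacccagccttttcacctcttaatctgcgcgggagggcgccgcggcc
Opalin: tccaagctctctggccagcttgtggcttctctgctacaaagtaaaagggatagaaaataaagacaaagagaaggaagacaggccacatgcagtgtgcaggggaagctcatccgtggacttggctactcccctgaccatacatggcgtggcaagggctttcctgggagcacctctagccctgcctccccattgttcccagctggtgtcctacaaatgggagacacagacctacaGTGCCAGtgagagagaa

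The genes varied widely between libraries, also within groups. From the lowest to the highest of the 20 libraries, Mbp spanned 3.95-fold, Mag 4.72-fold and Nkx6-2 5.13-fold, the widest of the 34. Bin1, a membrane-curving protein gene, spanned 1.78-fold, the narrowest. SCFA 5 was the lowest library for 24 genes and Abx 3 for the other 10, while SCFA 1 was the highest for 25, H2O 4 for 5 and H2O 5 for 2. Within a group, Mbp spanned 1.81-fold in Abx_SCFA, 2.11-fold in Abx, 3.91-fold in SCFA and 1.65-fold in H2O. The low SCFA 5 library was also the one with the highest summed cortical neuron level, 1487 CPM, while Abx 3 had 280 CPM and SCFA 1 had 138 CPM. The part of cortical tissue in this spread was not tested.

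**Figure D2:**
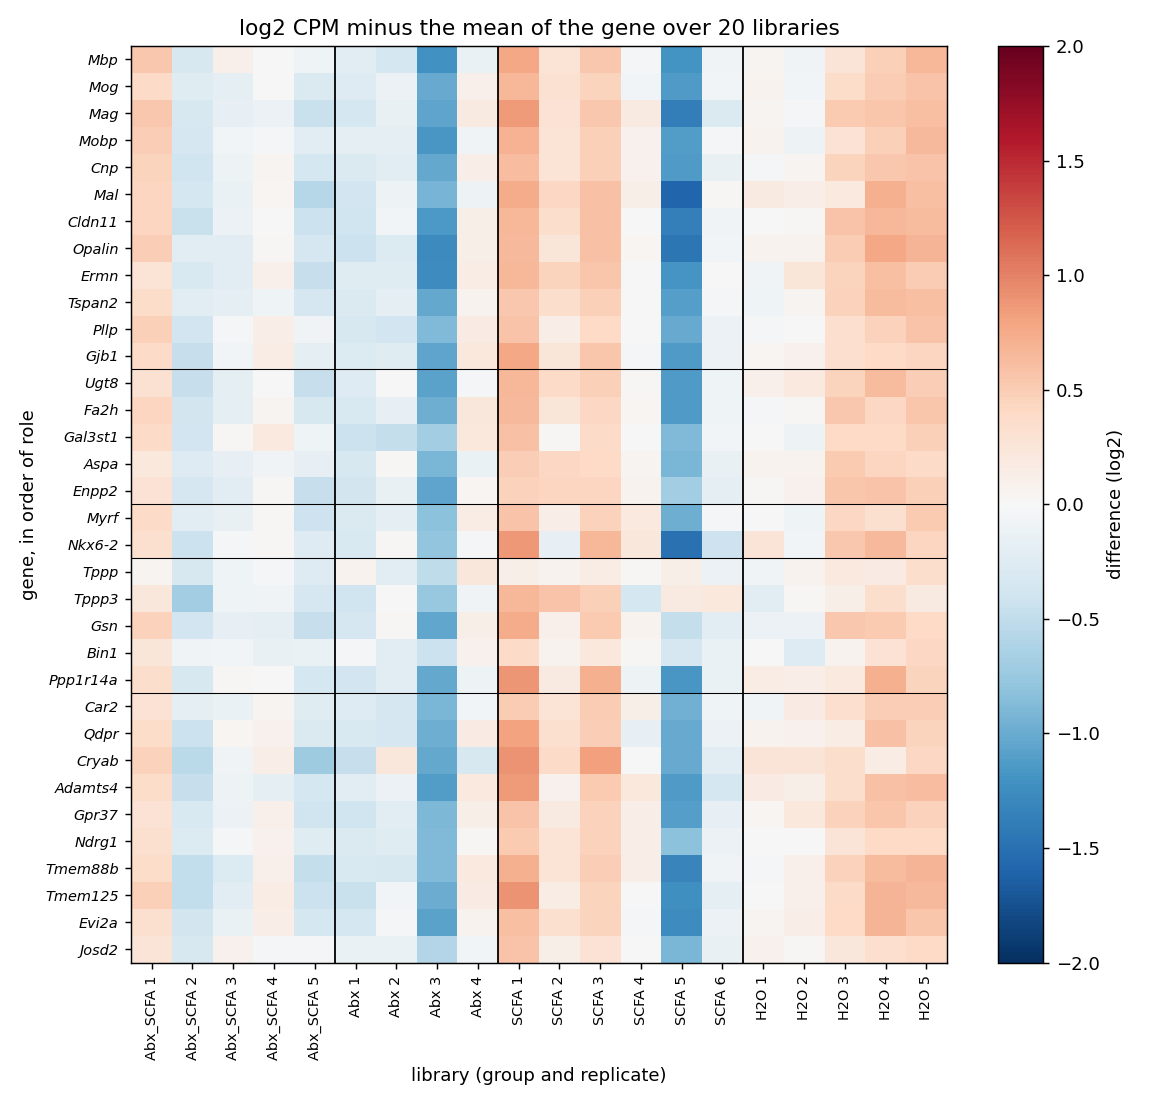
Log2 CPM of each of the 34 genes (rows, by role) in each of the 20 libraries (columns, by group), minus the gene's own mean over all libraries, as colour from blue (low) to red (high). Most columns have 1 colour from top to bottom, with SCFA 5 and Abx 3 low and SCFA 1 high, and the rows of Tppp, Tppp3 and Bin1 are paler.

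Structural, lipid and transcription factor genes moved together through this variation. The mean log2 CPM of the 12 structural genes ran from 7.21 to 9.12 over the 20 libraries, a span of 1.92. The structural mean less the lipid mean ran only from 2.23 to 2.63, a span of 0.40, and the structural mean less the transcription factor mean spanned 0.59. By group, structural less lipid was 2.49 to 2.63 in Abx_SCFA, 2.37 to 2.55 in Abx, 2.23 to 2.63 in SCFA and 2.41 to 2.63 in H2O, so that all groups overlapped. It was lowest in SCFA 5 (2.23) and Abx 3 (2.37), where the genes themselves were lowest. Structural less transcription factor was 2.06 to 2.17 in Abx_SCFA, 1.80 to 2.09 in Abx, 1.90 to 2.39 in SCFA and 1.96 to 2.19 in H2O. These are differences between means of CPM without length correction, so only their spread across libraries can be read.

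After each group's mean was removed, the log2 CPM of the other 33 genes correlated with that of Mbp over the 20 libraries with a Pearson r of 0.54 to 0.99 and a median of 0.96. Spearman's rho ran from 0.68 to 0.98, with a median of 0.92. Of the 33, 28 had an r above 0.9, as had 1.45% of all 12845 genes compared. Without SCFA 5 and Abx 3, the libraries farthest from the median of Mbp, r was 0.70 to 0.98 with a median of 0.90. With 100000 permutations of libraries within groups and Benjamini-Hochberg adjustment over all 12845 genes, 31 of the 33 passed for a positive Pearson r, against a background of 6.02%. The smallest p such permutations can give is 1e-05.

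The 2 that did not pass were both genes of tubulin polymerization. Tppp had an r of 0.54 (rho 0.68, permutation p = 0.00894, adjusted p = 0.0854) and its relative Tppp3 an r of 0.64 (rho 0.77, permutation p = 0.0117, adjusted p = 0.100). For Spearman's rho the adjusted permutation p was 0.0251 for Tppp and 0.0103 for Tppp3. Their slopes on the mean of the other 33 genes were 0.24 and 0.49 log2 units per unit, and that of Bin1 was 0.45. The slope was 0.93 for Myrf and 1.19 for Nkx6-2. Among the lipid genes it was 1.07 for Ugt8, 1.08 for Fa2h, 0.87 for Enpp2, 0.83 for Gal3st1 and 0.83 for Aspa. Structural genes ran from 0.956 for Pllp to 1.295 for Mag, with 1.10 for Cnp and 1.29 for Opalin, an oligodendrocyte membrane protein gene. The median SD within groups was 0.462 log2 units over the 34 genes and 0.164 over all genes.

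**Figure D3:**
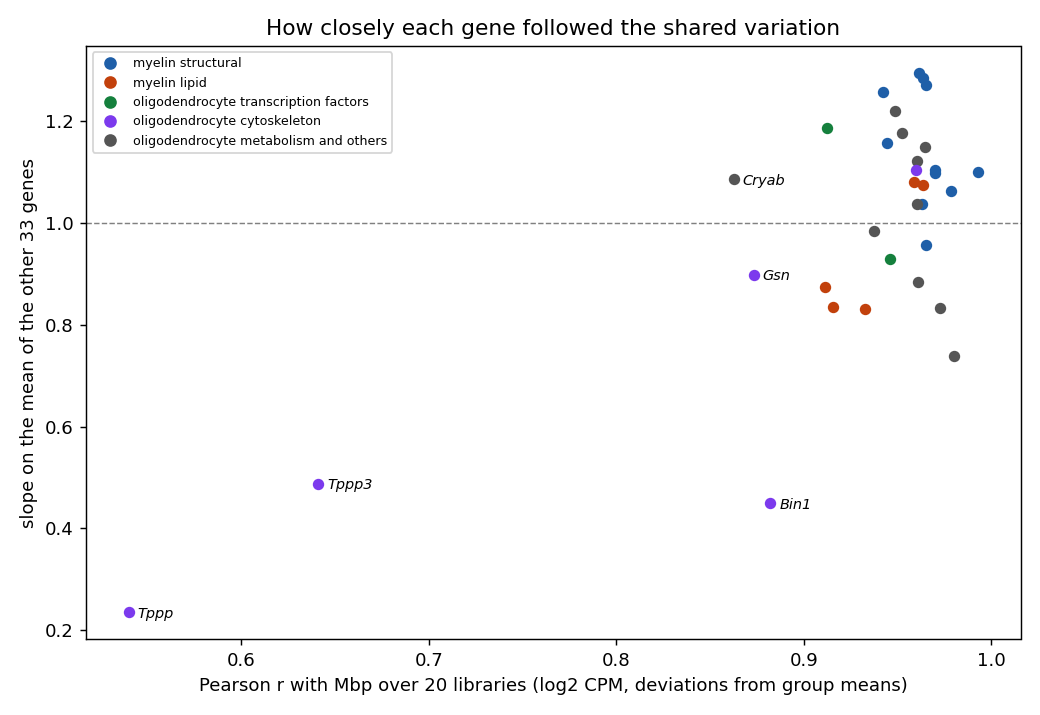
Each of 33 oligodendrocyte genes as a point, with its Pearson r with Mbp over 20 libraries (x axis, log2 CPM, deviations from group means) against its slope on the mean of the other 33 genes (y axis), coloured by role. Most points lie above an r of 0.9, and Tppp (0.54) and Tppp3 (0.64) lie far to the left.

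Outside the list, the 8 genes that followed Mbp most closely by Pearson r were Bcas1 (0.98), a gene of newly formed and mature oligodendrocytes, Wscd1 (0.98), Kank1 (0.98), Adpgk (0.97), Cd82 (0.97), the sphingosine phosphate receptor gene S1pr5 (0.97), the lineage transcription factor gene Sox10 (0.97) and Rhog (0.97). All libraries share the scaling to CPM, and genes are not independent of each other.

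Abx rats were set against H2O rats to follow these genes after microbiome depletion. All 34 genes had negative log2 fold changes, with a median of -0.63, while the median of all genes was -0.01, with 52.3% of them negative and 47.7% positive. None passed: edgeR called 0 of 12846 genes at an adjusted p below 0.05 (0%), limma-voom called 0 and DESeq2 called 1, which was not one of the 34. At an unadjusted p below 0.05, 22 of the 34 genes were lower, against 710 of all genes (5.53%), while 419 of all genes (3.26%) and 0 of the 34 were higher. The adjusted p of the 34 ran from 0.563 to 0.610. Since the 34 genes vary as 1 block, their counts are not separate observations.

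The 12 structural myelin genes had a median log2 fold change of -0.66 and a range from -0.83 to -0.54, and 10 of them had an unadjusted p below 0.05. Opalin had a log2 fold change of -0.83 ± 0.33 (SE), Mbp of -0.73 ± 0.30, Mag of -0.64 ± 0.33, Mobp of -0.64 ± 0.29, Cnp of -0.63 ± 0.28 and Mog of -0.58 ± 0.27. The Mbp value stands for a level 39.5% lower in Abx. The 5 lipid genes had a median of -0.60, and 4 had an unadjusted p below 0.05. Enpp2 had the smallest p of the 34 genes (-0.69 ± 0.24, edgeR adjusted p = 0.563), followed by Car2, the carbonic anhydrase gene of oligodendrocytes (-0.66 ± 0.23), and Aspa (-0.60 ± 0.22). Ugt8 had -0.67 ± 0.28, Fa2h -0.57 ± 0.28 and Gal3st1 -0.55 ± 0.24.

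The log2 fold change was -0.51 ± 0.25 (SE) for Myrf and -0.62 ± 0.32 for Nkx6-2, neither at an unadjusted p below 0.05. The 5 cytoskeletal genes had a median of -0.38, with 1 at an unadjusted p below 0.05. That was Ppp1r14a, a myosin phosphatase inhibitor gene (-0.73 ± 0.30). The 3 genes nearest 0 were all in this class, Tppp at -0.23 ± 0.12, Bin1 at -0.26 ± 0.14 and Tppp3 at -0.38 ± 0.20. The 10 remaining genes had a median of -0.64 with 7 at an unadjusted p below 0.05, among them Gpr37, a G protein-coupled receptor gene (-0.66 ± 0.26), and Ndrg1 (-0.53 ± 0.22).

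In 6 genes, Mbp, Mal, Ugt8, Aspa, Ppp1r14a and the deubiquitinase gene Josd2, every Abx library lay under every H2O library, which held for 1.57% of all genes. No gene of the 34 had every Abx library above every H2O library (all genes, 0.887%). The count of 22 depended on single libraries. It was 2 without Abx 3, 12 without Abx 1, 12 without H2O 3, 6 without H2O 4 and 7 without H2O 5, while the median without Abx 3 was -0.44 and every gene stayed negative. Over all libraries left out in turn, the count ran from 2 to 31. With the mean log2 level of the cortical neuron genes as a covariate, the count was 1 and the median -0.40. No share of all genes is given for these fits, so the counts show only how the number moved. The part of cortical tissue in the difference was not tested further.

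**Figure D4:**
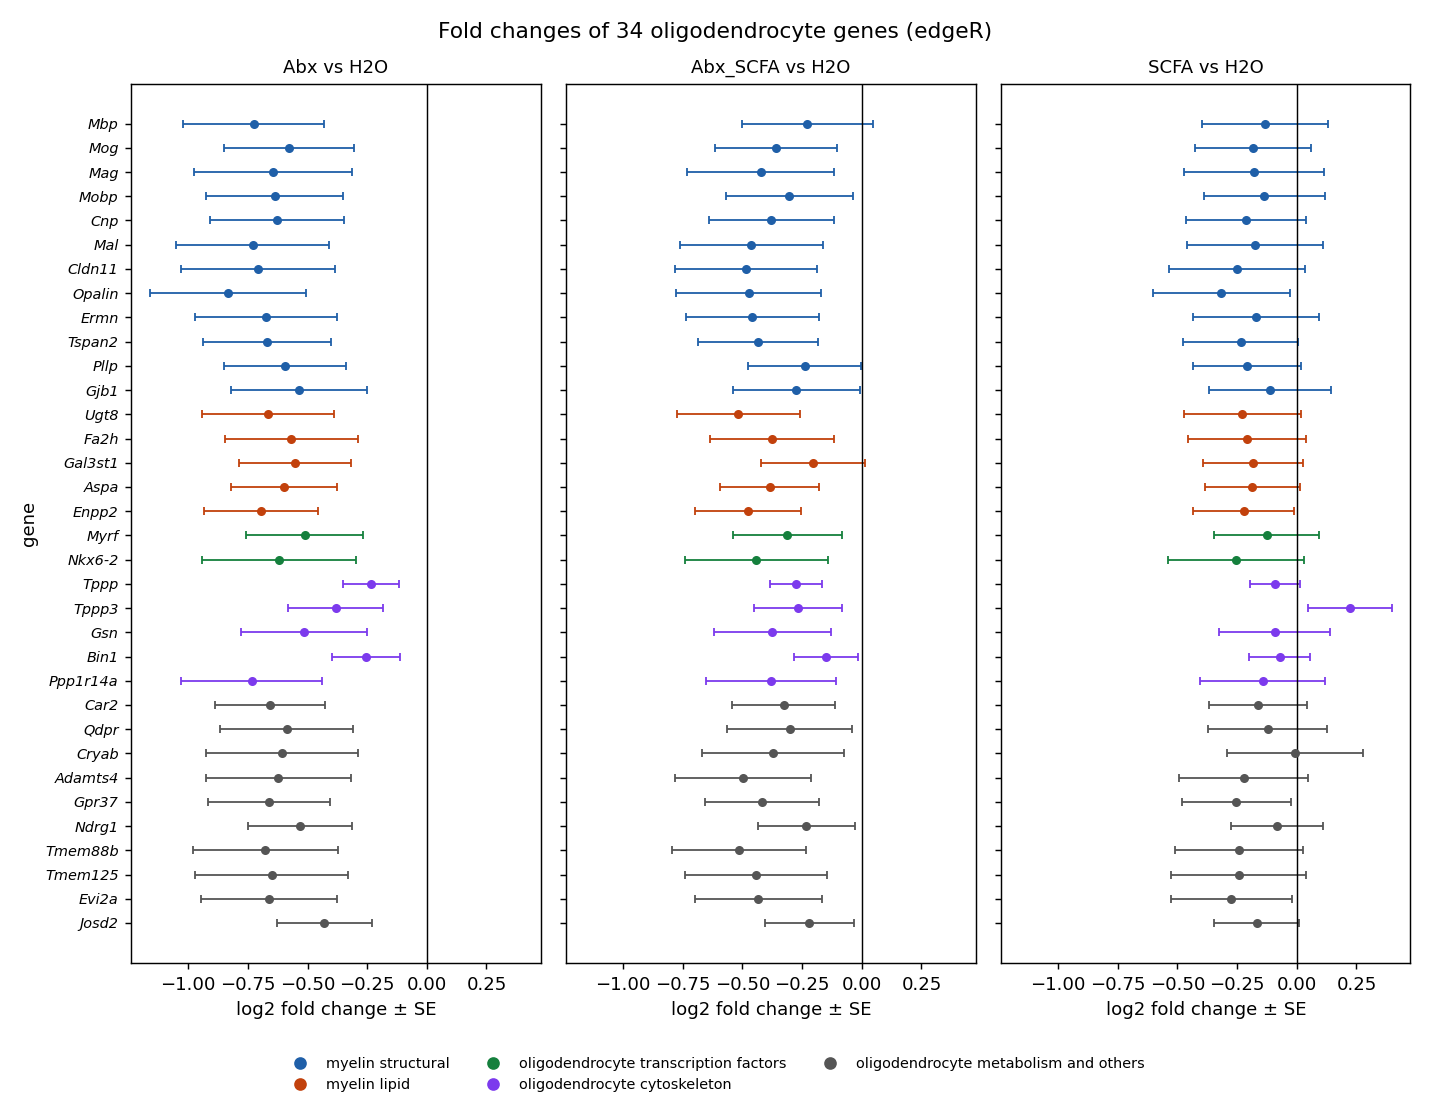
Log2 fold changes with SE (x axis) of the 34 genes (rows, coloured by role) in Abx vs H2O, Abx_SCFA vs H2O and SCFA vs H2O. All points are negative in Abx vs H2O (median -0.63) and in Abx_SCFA vs H2O (median -0.38), and Tppp3 alone is positive in SCFA vs H2O (0.22). No gene passed the adjusted threshold, and the 3 panels share the H2O libraries.

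The Abx and H2O rats came from both number series, so the difference could be read within each. In the 300s (2 Abx and 3 H2O libraries), Mbp was 2877 and 6083 CPM in Abx and 7989, 9270 and 10537 CPM in H2O. In the 200s (2 and 2 libraries), Mbp was 5689 and 5237 CPM in Abx and 6944 and 6383 CPM in H2O. The Abx levels were lower in both, by more in the 300s. In the 300s all 34 genes had lower means in Abx, with a median difference of -0.95 in mean log2 CPM, and 31 did not overlap (all genes lower without overlap, 15.6%). In the 200s 33 genes had lower means, with a median of -0.28, and 29 did not overlap (all genes, 18.7%); the exception was Bin1 (0.002).

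The H2O rats of the 300s also had higher levels of these genes than the H2O rats of the 200s. All 34 had higher means in the 300s, with a median difference of 0.44, and 33 did not overlap, against 12.7% of all genes higher without overlap. Since the genes vary together, this count and those of 31 and 29 above are not separate observations. An edgeR model of these 9 libraries had 1 mean per group and series and was chosen after the data were examined. For the 300s against the 200s within H2O, it called 0 of 12599 genes at an adjusted p below 0.05. At an unadjusted p below 0.05, 1 of the 34 (Bin1, 0.39 ± 0.17, SE) and 2.75% of all genes were higher, and 2.96% of all genes were lower. Within Abx, the same contrast gave 0 called genes and a median of -0.13 over the 34 genes, with 5 positive. At an unadjusted p below 0.05 it had 0 of the 34 and 2.5% of all genes higher and 2.06% lower.

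The Abx effect in the 300s less that in the 200s was negative in all 34 genes in this model, with a median of -0.58. No gene was called (0 of 12599, smallest adjusted p of the 34 genes 0.880), and at an unadjusted p below 0.05 there was 1 of the 34, Aspa (-0.70 ± 0.29, SE), against 2.26% of all genes lower and 3.38% higher. Mbp had -0.76 ± 0.41. Hence the size of the Abx difference was not shown to differ between the series. With the series as a term in the model of Abx and H2O, the Abx vs H2O median was -0.59, with 0 genes called.

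**Figure D5:**
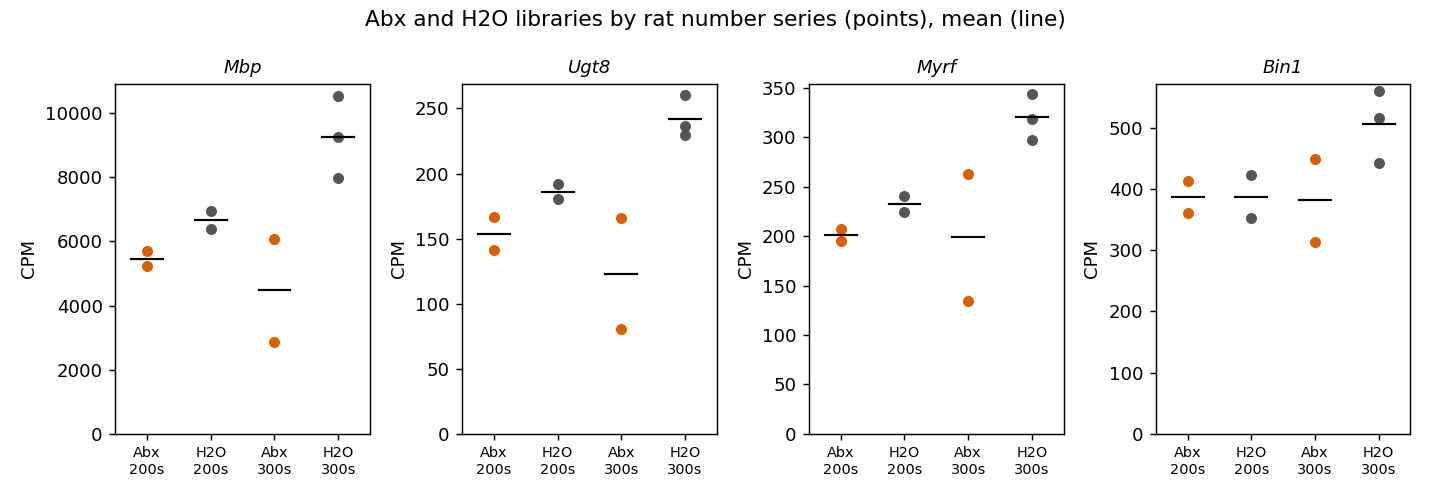
Levels of Mbp, Ugt8, Myrf and Bin1 in CPM (y axis, starting at 0) in Abx and H2O libraries of the 200s and the 300s of rat numbers (x axis), with libraries as points and the mean as a line. In Mbp the gap between Abx and H2O is wider in the 300s, where H2O is at 7989 to 10537 CPM, than in the 200s, where it is at 6383 and 6944 CPM.

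Rats given both treatments were set against water rats to see where the genes lay when fatty acids accompanied the antibiotics. In Abx_SCFA vs H2O all 34 genes had negative log2 fold changes, with a median of -0.38 and a range from -0.52 to -0.15, against 52.4% of all genes negative. Every one of the 34 overlapped between the groups, where 0.755% of all genes were lower and 0.669% higher without overlap. edgeR called 0 of 12846 genes (0%), DESeq2 1 and limma-voom 0. At an unadjusted p below 0.05, 2 of the 34 were lower, as were 445 of all genes (3.46%), and 269 of all genes (2.09%) were higher. These 2 were Tppp (-0.28 ± 0.11, SE) and Enpp2 (-0.48 ± 0.22), both with an edgeR adjusted p of 0.815. Ugt8 came next at -0.52 ± 0.26, Myrf had -0.31 ± 0.23 and Mbp -0.23 ± 0.28. The medians were -0.40 for structural, -0.39 for lipid, -0.38 for transcription factor, -0.28 for cytoskeletal and -0.40 for the remaining genes.

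Fatty acids without antibiotics were compared with water in SCFA vs H2O, where they cannot be told apart from the number series. The median of the 34 genes was -0.18, with 33 negative and 1 positive (all genes, 51.1% negative and 48.9% positive), and 0 had an unadjusted p below 0.05, while 717 of all genes (5.58%) were lower and 1053 (8.2%) higher at that level. edgeR called 0 of 12846 genes (0%), limma-voom 0 and DESeq2 10, none of them among the 34. The positive one was Tppp3 (0.22 ± 0.18, SE), and the smallest other p values were those of Gpr37 (-0.25 ± 0.23) and Opalin (-0.32 ± 0.29). Mbp had -0.13 ± 0.26, Ugt8 -0.23 ± 0.25, Myrf -0.13 ± 0.22 and Nkx6-2 -0.25 ± 0.29. Without SCFA 5, the library lowest in 24 genes, the median was -0.03 and Mbp was 0.04. Without SCFA 1, the library highest in 25, the median was -0.31.

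Adding fatty acids to antibiotics was compared in Abx_SCFA vs Abx. Here 33 of the 34 genes had positive log2 fold changes, with a median of 0.22 (all genes, 49.9% positive and 50.1% negative), and 0 had an unadjusted p below 0.05. None was without overlap (all genes, 0.732% higher and 0.467% lower). edgeR and limma-voom each called 0 of 12846 genes (0%), and DESeq2 called 0. At an unadjusted p below 0.05 there were 238 of all genes higher (1.85%) and 172 lower (1.34%). The smallest p values were those of Mbp (0.50 ± 0.29, SE), Gal3st1 (0.35 ± 0.23) and Car2 (0.33 ± 0.23), and Tppp was the negative one at -0.04 ± 0.12. The median was 0.26 for structural, 0.21 for lipid, 0.19 for transcription factor, 0.12 for cytoskeletal and 0.23 for the remaining genes. Without Abx 3, the lowest Abx library in every one of the genes, the median of the 34 was 0.05, and without Abx_SCFA 1 it was 0.10.

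Abx_SCFA vs SCFA sets antibiotics against none in rats that all received fatty acids and all carry numbers of 1 series. All 34 genes had negative log2 fold changes, with a median of -0.18 (all genes, 54.5% negative and 45.5% positive). Tppp3 was the 1 gene with an unadjusted p below 0.05 (-0.49 ± 0.18, SE, edgeR adjusted p = 0.732), against 522 of all genes lower (4.06%) and 349 higher (2.72%). edgeR and limma-voom called 0 genes (0%) and DESeq2 4, none among the 34. Tppp had -0.18 ± 0.11 and Cryab, a small heat shock protein gene, -0.36 ± 0.29. Tppp3 levels were 23.9, 12.7, 19.4, 19.5 and 16.3 CPM in Abx_SCFA and 16.1 to 32.7 CPM in SCFA, with a median of 26.1, so the groups overlapped. Mbp had a log2 fold change of -0.09 ± 0.26, Ugt8 of -0.29 ± 0.25 and Myrf of -0.19 ± 0.22. Without SCFA 1, 26 of the 34 genes were negative, with a median of -0.05, and 31 were without SCFA 3, without Abx_SCFA 2 and with limma-voom.

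The interaction is the antibiotic effect with fatty acids (Abx_SCFA less SCFA) minus that without them (Abx less H2O). It was positive in 33 of the 34 genes, with a median of 0.41 (all genes, 51.8% positive and 48.2% negative), and 0 had an unadjusted p below 0.05, against 364 of all genes higher (2.83%) and 644 lower (5.01%). edgeR, DESeq2 and limma-voom called 0 genes (0%). The smallest p values belonged to Gal3st1 (0.53 ± 0.31, SE), Pllp, the plasmolipin gene (0.56 ± 0.34), and Mbp (0.63 ± 0.39), and the negative gene was Tppp3 (-0.11 ± 0.26). The antibiotic effect on these genes was therefore not shown to differ with fatty acids, and in this contrast too the fatty acids and the number series cannot be told apart. The 6 comparisons share libraries and their values are given side by side.

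Other genes of the lineage were also mostly negative in Abx vs H2O. Of 21 further genes of mature oligodendrocytes, 21 were negative, with a median of -0.51 and 9 at an unadjusted p below 0.05, where 52.3% of all genes were negative and 5.53% were lower at that level. Those with the smallest p were the glycolipid transfer protein gene Gltp (-0.50 ± 0.16, SE), the tetraspanin gene Cd82 (-0.58 ± 0.19) and Efhd1 (-0.37 ± 0.13). Of 9 genes of newly formed oligodendrocytes, 9 were negative, with a median of -0.24 and 2 at that level, Bcas1 (-0.67 ± 0.28) and the receptor gene Gpr17 (-0.37 ± 0.18). Of 9 precursor genes, 8 were negative, with a median of -0.17 and 2 at that level, the transcription factor genes Olig2 (-0.59 ± 0.18) and Olig1 (-0.48 ± 0.21), which mature oligodendrocytes express as well. No difference between these lists was tested.

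Myelin draws on a supply of cholesterol. Of 22 cholesterol synthesis genes, 19 were positive in Abx vs H2O, with a median of 0.09, and 1 had an unadjusted p below 0.05, Tm7sf2, a sterol reductase gene (0.30 ± 0.13, SE), where 3.26% of all genes were higher at that level. In SCFA vs H2O 22 of 22 were positive, with a median of 0.23 and 9 at that level, among them Sqle (0.34 ± 0.10), where 8.2% of all genes were. The summed level of the 22 genes was highest in SCFA 5 (2169 CPM) and SCFA 2 (2128 CPM), the libraries with the highest cortical neuron levels. The other SCFA libraries had 1498 to 1729 CPM, within the 1352 to 1777 CPM of H2O. The part of cortical tissue in this difference was not tested. Of the same 22 genes, 13 were positive in Abx_SCFA vs H2O (median 0.03), 3 in Abx_SCFA vs Abx (median -0.07) and 2 in Abx_SCFA vs SCFA (median -0.16, with 7 lower at an unadjusted p below 0.05, against 4.06% of all genes). In the interaction 22 were negative, with a median of -0.30 and 4 at that level, against 5.01% of all genes. The 16 genes of sphingolipid and fatty acid chain synthesis had medians of -0.06 in Abx vs H2O and -0.04 in SCFA vs H2O. They did not all move alike. In Abx vs H2O 12 were negative and 4 positive, with 3 lower at an unadjusted p below 0.05 (all genes, 5.53%) and 0 higher. In SCFA vs H2O 10 were negative and 6 positive, with 3 higher at that level (all genes, 8.2%) and 0 lower. Peripheral myelin genes had a median of -0.05 in Abx vs H2O over 5 genes, with a range from -0.43 to 0.36. Of these, 3 were negative and 2 positive, with 1 lower at an unadjusted p below 0.05 (all genes, 5.53%) and 0 higher. Neurons and astrocytes express cholesterol synthesis genes as well.

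Markers of other cells of the tissue had medians nearer 0 in Abx vs H2O, namely -0.11 for 10 astrocyte genes, -0.15 for 10 microglial genes, -0.09 for 10 genes of endothelium and mural cells and -0.07 for 14 medium spiny neuron genes. Most were negative too, 9 of the astrocyte, 8 of the microglial, 7 of the endothelial and mural and 10 of the medium spiny neuron genes. At an unadjusted p below 0.05, 2 astrocyte genes, Aqp4 (-0.30 ± 0.10, SE) and Gfap (-0.41 ± 0.17), and 1 microglial gene were lower (all genes, 5.53%). The order of these medians did not hold in all comparisons. The 10 endothelial and mural genes were all positive in Abx_SCFA vs Abx, with a median of 0.26 and 6 higher at an unadjusted p below 0.05 (all genes, 1.85%), against 0.22 for the oligodendrocyte genes. The medium spiny neuron genes were all negative in SCFA vs H2O, with a median of -0.35 and 4 lower at that level (all genes, 5.58%), against -0.18 for the oligodendrocyte genes. They were all positive in Abx_SCFA vs SCFA, with a median of 0.38 and 9 higher (all genes, 2.72%), against -0.18 for the oligodendrocyte genes. The summed level of the medium spiny neuron genes was lowest in SCFA 2 (4405 CPM) and SCFA 5 (4330 CPM), the libraries with the highest cortical neuron levels. The other SCFA libraries had 6818 to 9449 CPM, against 7445 to 10090 CPM in H2O. The 9 cortical neuron genes were positive in all comparisons with H2O, with medians of 1.76 in Abx_SCFA vs H2O, 2.10 in Abx vs H2O and 2.64 in SCFA vs H2O. With the cortical covariate the median of the oligodendrocyte genes was -0.18 in Abx_SCFA vs H2O and 0.03 in SCFA vs H2O.

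The transferrin gene, whose product carries iron and which oligodendrocytes express, has a row under the symbol Tf, and the symbol Trf of the list is a synonym of it in RefSeq, though of another gene as well. It was looked at after its values were seen and is not among the 34. Tf averaged 937 ± 270 CPM in Abx_SCFA, 785 ± 239 in Abx, 1099 ± 467 in SCFA and 1306 ± 216 in H2O (SD), with a log2 fold change of -0.73 ± 0.32 (SE, edgeR adjusted p = 0.563) in Abx vs H2O.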

How the data were processed

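The authors deposited 1 table of read counts per gene symbol for 20 libraries. The submitters' processing notes name the aligner STAR 2.4.0, the build Rnor_6.0, FastQC 0.11.6 and limma. How the reads were counted, and with which strand setting, is not given in the sources used here, so reads of overlapping or antisense genes cannot be assigned with certainty. Groups came from the treatment labels, and replicate numbers follow the order of deposit and pair nothing. No pair of libraries agreed within sampling noise (smallest chi-square per gene 6.59 over 190 pairs).

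Differences were tested by edgeR 4.0.16 (R 4.3.3, quasi-likelihood, TMM scaling) in 1 model of the 4 groups with 16 residual degrees of freedom. The filter filterByExpr (minimum 10 counts, 15 in total) left 12846 genes, and p-values were adjusted over all of them by Benjamini-Hochberg, with calls below 0.05. CPM are counts divided by the TMM-adjusted library size, with a prior count of 2 in log2 CPM. The procedure was run on simulated data in which genes varied independently, so variation shared between genes was not simulated. Alternatives used DESeq2 1.42.0, limma 3.58.1, other scalings and filters, covariates, number series and each library left out. DESeq2 was run on all 17296 symbols of the table with its own filtering. The p-values of group comparisons set differences against the spread between rats, with any cage mates counted as separate replicates.

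The genes and lists were chosen with earlier results of these data known. Always named were 12 genes, in each comparison the 3 with the smallest p, in Abx vs H2O the 3 nearest 0, up to 3 genes per other list and the 8 non-members nearest to Mbp. A gene that the rule names is not reported here. Promoters come from RefSeq GRCr8.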

Additional observations from a re-analysis of the deposited data

Results flagged for a closer look

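In groups of 4 to 6 libraries, the gap between the lowest or highest library and its neighbour was set against the group's range (Dixon's ratio, taken on log2 CPM). Of 136 sets of a gene and a group, 8 (5.88%) passed the 95% critical value, near the 5% of sets that chance passes. In SCFA, replicate 5 stood below the other libraries in Mal (173 CPM against 524 in the next library, ratio 0.690), Opalin (80.6 against 213, ratio 0.667), Tspan2, a tetraspanin gene (144 against 301.26, ratio 0.650), Ermn, a cytoskeletal myelin gene (71.0 against 161, ratio 0.639), and Cldn11, the tight junction gene of myelin (176 against 431, ratio 0.638). In Abx, replicate 3 stood below the others in Mobp (473 CPM against 942, ratio 0.907) and Josd2 (34.2 against 46.9, ratio 0.852). In Abx_SCFA, replicate 1 stood above the others in Bin1 (495 CPM against 404.44, ratio 0.770). The genes vary together, so these are 3 libraries and not 8 separate events.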

How the results depend on the processing

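No member gene was called in any of 194 combinations of setting and comparison. In Abx vs H2O every member stayed negative in 33 of 34 alternatives, the exceptions being Bin1 (0.0271) and Gsn (7e-04) within the 200s alone. The members' median ran from -0.86 to -0.25 in Abx vs H2O, -0.52 to -0.18 in Abx_SCFA vs H2O, -0.31 to 0.03 in SCFA vs H2O, 0.05 to 0.38 in Abx_SCFA vs Abx, -0.34 to -0.05 in Abx_SCFA vs SCFA and 0.18 to 0.57 in the interaction.

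DESeq2 called 1 gene in Abx vs H2O, 1 in Abx_SCFA vs H2O, 10 in SCFA vs H2O and 4 in Abx_SCFA vs SCFA. With each library left out in turn, edgeR called 0 to 2 genes in SCFA vs H2O and 0 to 2 in Abx_SCFA vs SCFA, and the members lower at an unadjusted p below 0.05 in Abx vs H2O numbered 2 to 31. That count was 1 with the cortical covariate and 13 within the 200s alone. No share of all genes at that level is given for these fits, so the counts show only how the number moved.

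With the cortical covariate, SCFA vs H2O had a median of 0.0302, with Mbp 0.0399, Mog 0.0158, Mag 0.135, Mobp 0.0512, Ugt8 0.0292, Fa2h 0.0118, Aspa 0.0712, Myrf 0.0797 and Nkx6-2 0.239, and Nkx6-2 had 0.0217 in Abx_SCFA vs H2O and -0.0962 in the interaction. Without both SCFA 2 and SCFA 5, SCFA vs H2O had Mbp 0.048, Mag 0.0221, Mobp 0.0388, Gal3st1 2e-04, Myrf 0.0567 and Nkx6-2 0.033. With single libraries left out, SCFA vs H2O ran from -0.293 to 0.0353 in Mbp, -0.363 to 0.003 in Mag, -0.274 to 0.0278 in Mobp and -0.231 to 0.0241 in Myrf. Abx_SCFA vs SCFA ran from -0.261 to 0.0694 in Mbp, -0.375 to 0.0222 in Nkx6-2 and -0.161 to 0.111 in Gal3st1, and was 0.0477 in Gal3st1 with limma-voom. Abx_SCFA vs Abx ran from -0.0432 to 0.247 in Ugt8. The cause was not tested.

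No paired analysis was possible because the replicate numbers follow the order of deposit and mark no shared animal, cage or day. The lowest level of any member in any library was 6.89 CPM (Gal3st1 in SCFA 5), above the 0.117 to 0.171 CPM that a count of 0 allows (3 counts, counting error only).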
